A study of Mus musculus with 24 samples.

Results

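The genes described here are 10 genes of chemokine and macrophage growth factor signaling in cultured muscle, chosen by name, out of 56941 genes in the tables. They are the chemokines Cxcl1, Cxcl5, Cxcl12, Cx3cl1, Ccl2, Ccl7, and Ccl9, the growth factor Csf1, and Nfkbia and Tnfaip3, which restrain NF-kB signaling. A filter on low counts kept 9 of the 10 genes among 13318 genes tested, and Ccl9 did not pass it. Bulk RNA sequencing was performed on 2D muscle sheets grown from C2C12, an established mouse myoblast line that fuses into contractile fibers in culture. Cells of every group, control included, carried ChR2::tdTomato, a blue light-gated ion channel (channelrhodopsin) fused to a red fluorescent protein, and all sheets were differentiated on grooved fibrin hydrogels. Sheets were exposed to pulsed light for 30 min each day at 1 Hz, 4 Hz, or 10 Hz, and the control group received no stimulation, with 6 libraries per condition and 24 in all. The control was not illuminated, so light and contraction cannot be told apart, and the study describes spontaneous twitching in all conditions. The model is a single cell line.

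Chemokines are small secreted proteins that guide migrating cells through G protein-coupled receptors, and they are grouped as CXC, CC, and CX3C by the spacing of their first cysteines. In injured muscle, CC chemokines such as Ccl2 draw monocytes, CXC ligands of Cxcr2 draw neutrophils, Cxcl12 acts on Cxcr4 of progenitor cells, and Csf1 sustains macrophages through its receptor Csf1r. Many of these ligands are transcribed by NF-kB, which also transcribes its own brakes, the inhibitor IkB-alpha (Nfkbia) and the ubiquitin-editing enzyme A20 (Tnfaip3).

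The sequences just upstream of the start sites are shown because several of these genes are textbook NF-kB targets. RefSeq windows on the GRCm38.p6 build were found for 7 of the 10 genes and were searched on both strands for the NF-kB consensus, a motif of 10 bases given here by its name alone. The consensus was present in the 250 bases before the start of 5 of the 7 genes, namely Cxcl1, Ccl9, Csf1, Nfkbia, and 1 of the windows listed for Tnfaip3, and it was present in 7.25% of all 32851 windows of that length. No match was found for Cxcl12 or Cx3cl1 in these windows, and Cxcl5, Ccl2, and Ccl7 were not matched. The last 160 bases before the start are printed 5′ to 3′ on the strand of the gene, with each match in capitals, for Cxcl1 (chr5:90891085-90891244, + strand), Nfkbia (chr12:55492648-55492807, - strand), Tnfaip3 (chr10:19015411-19015570, - strand), Csf1 (chr3:107760470-107760629, - strand), and Cxcl12 (chr6:117168375-117168534, + strand). A match is a description of the letters and not of a bound site.
Cxcl1: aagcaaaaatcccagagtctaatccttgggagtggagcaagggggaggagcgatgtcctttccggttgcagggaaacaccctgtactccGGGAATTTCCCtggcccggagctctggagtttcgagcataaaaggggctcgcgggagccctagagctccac
Nfkbia: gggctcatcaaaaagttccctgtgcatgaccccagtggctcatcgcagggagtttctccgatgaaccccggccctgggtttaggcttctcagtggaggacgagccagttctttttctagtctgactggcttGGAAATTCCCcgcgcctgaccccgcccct
Tnfaip3: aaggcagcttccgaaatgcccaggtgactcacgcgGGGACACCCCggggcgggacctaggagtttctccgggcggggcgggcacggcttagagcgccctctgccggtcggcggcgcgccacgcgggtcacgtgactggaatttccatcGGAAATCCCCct
Csf1: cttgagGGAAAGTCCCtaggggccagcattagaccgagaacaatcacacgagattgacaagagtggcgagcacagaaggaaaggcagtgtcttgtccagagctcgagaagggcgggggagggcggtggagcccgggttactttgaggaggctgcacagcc
Cxcl12: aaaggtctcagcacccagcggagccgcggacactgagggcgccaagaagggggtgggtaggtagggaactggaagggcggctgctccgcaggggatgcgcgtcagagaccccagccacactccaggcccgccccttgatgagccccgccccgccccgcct
The match in Nfkbia began 29 bases before the start, and those in Cxcl1 began 70 and 71 bases before it as overlapping matches on the 2 strands. Tnfaip3 held matches at 12 and 125 bases, and the match of Csf1 lay farther away, at 154 bases.

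On GRCm39, Cxcl5 and Cxcl1 lie 129.6 kb apart on chromosome 5, and Ccl2 and Ccl7 lie 8.3 kb apart on chromosome 11. Csf1, with 9 exons in its canonical transcript, lies on chromosome 3 (107648364 to 107667806, - strand), Cxcl12 on chromosome 6 (117144945 to 117158328, + strand), and Nfkbia on chromosome 12 (55535332 to 55539432, - strand).

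Libraries held between 4.09 and 15.2 M (mega) counts (median 7.48 M), and no pair within a condition agreed within sampling noise. The share of 22 non-polyadenylated small RNAs differed between conditions, with a mean of 131.1 counts per M (CPM) in control, 30.04 CPM at 1 Hz, 27.57 CPM at 4 Hz, and 124.7 CPM at 10 Hz. Muscle identity was checked with 10 myotube markers, all of which passed the filter on low counts, with a mean summed level of 8575 transcripts per M (TPM) in control, 13460 TPM at 1 Hz, 14230 TPM at 4 Hz, and 10250 TPM at 10 Hz. Of 15 leukocyte markers, 3 passed the filter on low counts and 7, among them the defining genes Ptprc, Adgre1, Fcgr1, and Cd3e, never exceeded 1 count in a library. Csf1r was among those that passed, with at most 33 counts in a library. Itgam, Lyz2, and S100a8 did not pass but reached 17, 11, and 22 counts. The summed leukocyte level of 101.1 to 193.3 TPM came mostly from Cd68 (105 to 135 TPM by condition) and Cd14 (11 to 17.2 TPM), which are not restricted to leukocytes. None of 7 endothelial markers passed the filter, and their sum reached at most 2.078 TPM. One library, 10 Hz replicate 3, stood apart in several of the genes described here. Results that rest on it are given with and without it, except the correlations with other genes over all 24 libraries.

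Per length, the genes spanned from Csf1 at 44.2 TPM (mean of 24 libraries) to Ccl9 at 0.349 TPM. The order of mean levels in TPM was Csf1, Nfkbia (30.9), Ccl7 (14.4), Tnfaip3 (13.7), Cx3cl1 (9.23), Ccl2 (6.5), Cxcl12 (6.29), Cxcl1 (5.9), Cxcl5 (1.8), and Ccl9. Csf1 was in the upper part of all tested genes, at percentile 74.6, whereas Cxcl5 was at percentile 11. Neighbors in this order did not always differ beyond their spread. Ccl7 exceeded Tnfaip3 in 12 of 24 libraries, and the mean level of Ccl2 was above that of Cxcl12 although Ccl2 was the higher of the pair in 8 of 24 libraries. Nfkbia exceeded Ccl7 in 23 of 24 libraries, and Csf1 exceeded Nfkbia in 18 of 24. The order pools conditions that differ, and in control Nfkbia (44.07 ± 8.818 TPM) was above Csf1 (19.95 ± 3.436 TPM). The means of the lower chemokines also rest on 10 Hz replicate 3, without which Cxcl1 averaged 3.1 TPM and Ccl2, at 5.65 TPM, was below Cxcl12, at 6.36 TPM.

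**Figure D1:**
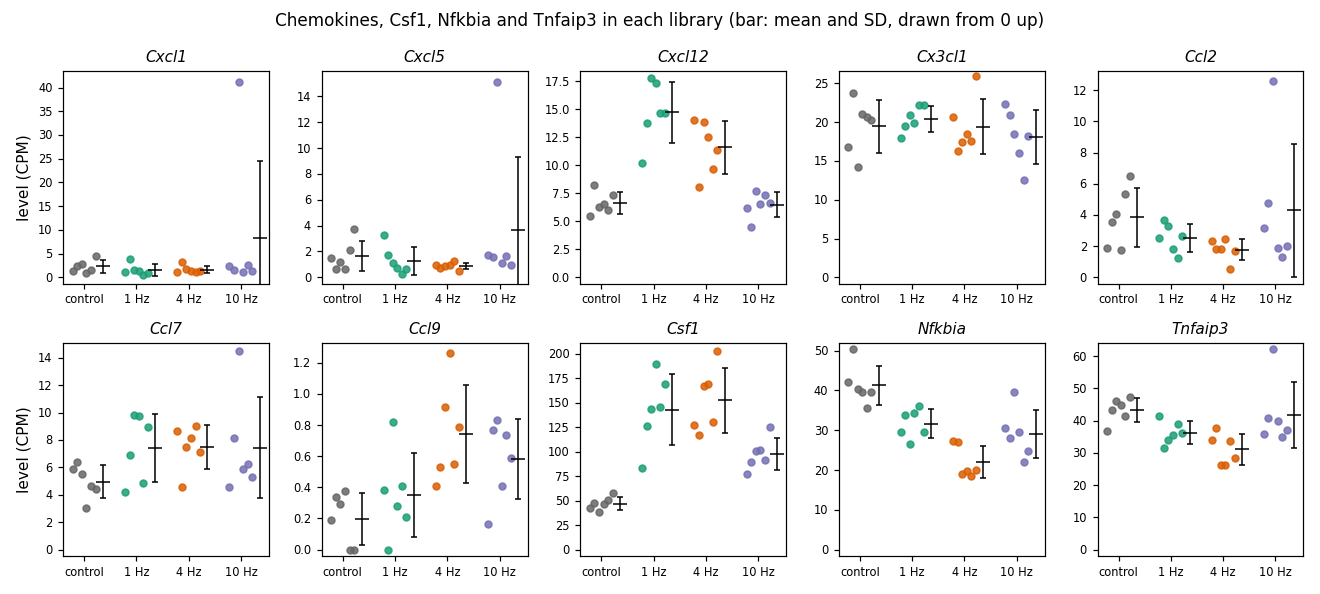
Level of each of the 10 genes in every library (dots, CPM on TMM-scaled library sizes, linear axis from 0) by condition, with the mean and SD of 6 libraries beside them. Csf1 was higher in all stimulated libraries than in control, Cxcl12 was higher at 1 Hz and 4 Hz but not at 10 Hz, and 1 library at 10 Hz stood far above the rest in Cxcl1 and Cxcl5.

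The first question was which of these genes differed from the unstimulated control. A gene was called at an adjusted p below 0.05 (edgeR's quasi-likelihood test with Benjamini-Hochberg adjustment over the 13318 genes) and an absolute log2 fold change above 0.5. At 1 Hz, 2 of 9 genes were called, both upregulated (Cxcl12 and Csf1), where 18.3% of all genes tested were called (9.34% up and 8.99% down). At 4 Hz, 3 of 9 genes were called against 20.1% of all genes (10.5% up and 9.61% down), with Cxcl12 and Csf1 upregulated and Nfkbia downregulated. At 10 Hz, 1 of 9 genes was called, Csf1, which was upregulated, against 1.86% of all genes (1.24% up and 0.623% down). These 3 comparisons share the 6 control libraries and are therefore not independent of each other.

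Csf1, the growth factor that sustains macrophages, had the largest called change of the 9 genes against control at each frequency. Its level ranged from 38.05 to 57.75 CPM in control (median 46.68), from 83.64 to 189.1 CPM at 1 Hz (median 144.2), from 117 to 202.6 CPM at 4 Hz (median 148.9), and from 77.45 to 125.5 CPM at 10 Hz (median 95.83). All 18 stimulated libraries lay above every control library. The control mean was 47.04 ± 6.845 CPM (SD, n = 6) and the 1 Hz mean was 142.7 ± 36.33 CPM, a 3.05-fold increase (log2 fold change 1.61 ± 0.16 SE, edgeR adjusted p = 4.7e-07). At 4 Hz it rose to 152.2 ± 32.9 CPM, a 3.25-fold increase (log2 fold change 1.70 ± 0.16 SE, edgeR adjusted p = 5.12e-08). At 10 Hz it rose to 97.65 ± 16.27 CPM, a 2.08-fold increase (log2 fold change 1.06 ± 0.16 SE, edgeR adjusted p = 0.000573). The increase at 10 Hz was smaller than at either lower frequency when these were compared directly (log2 fold change -0.55 against 1 Hz, edgeR adjusted p = 0.00648, and -0.64 against 4 Hz, edgeR adjusted p = 0.00412), and 1 Hz and 4 Hz were not separated (0.09, adjusted p = 0.753). With the log2 share of small RNA as a covariate, the change of Csf1 was 1.15 at 1 Hz (adjusted p = 0.0823) and the call was lost, whereas it was kept at 4 Hz (1.27, adjusted p = 0.00507) and at 10 Hz (0.98, adjusted p = 0.000513). The share in control (98.93 to 168.8 CPM) did not overlap that at 1 Hz (15.03 to 70.21 CPM) or 4 Hz (18.19 to 51.05 CPM). Covariate and condition are thus hardly separable there. Of all genes tested, that fit called 0.00751% at 1 Hz, 1.88% at 4 Hz, and 1.53% at 10 Hz. It called 1.85% for 10 Hz against 1 Hz and 0% for 10 Hz against 4 Hz. In that fit the differences of 10 Hz from 1 Hz and from 4 Hz were -0.17 (adjusted p = 0.73) and -0.28 (adjusted p = 0.836), and the call against 1 Hz was also lost without 1 Hz replicate 4 (-0.46) or without 10 Hz replicate 1 (-0.49). With limma without a filter, these differences were -0.51 (adjusted p = 0.065) and -0.56 (adjusted p = 0.064), and both calls were lost.

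The receptor of Csf1 was barely detected. Csf1r, a receptor tyrosine kinase of the macrophage lineage, had 1.492 ± 0.6494 CPM in control (SD, n = 6) and 0.6021 ± 0.3253 CPM at 4 Hz, a decrease that was called (log2 fold change -1.33 ± 0.45 SE, edgeR adjusted p = 0.0195) and lost without control replicate 2 (adjusted p = 0.0552) or control replicate 4 (adjusted p = 0.0509) and with limma without a filter (-0.38, adjusted p = 0.121). The libraries of the 2 conditions overlapped, and 4 of the 6 at 4 Hz lay below every control library. The other ligand of Csf1r, Il34, was measured at 7.42 ± 0.8766 CPM in control and was downregulated at 1 Hz (log2 fold change -0.68, edgeR adjusted p = 0.00741) and at 4 Hz (-0.91, adjusted p = 0.000518), with all 6 libraries below every control library at both frequencies. Thus the 2 ligands of the same receptor had called changes of opposite sign at 1 Hz and 4 Hz. At 10 Hz, Il34 was at 5.953 CPM (-0.30, adjusted p = 0.382). With the small RNA covariate, the calls of Il34 were lost at 1 Hz (-0.59, adjusted p = 0.522) and at 4 Hz (-0.82, adjusted p = 0.163), as was that of Csf1r at 4 Hz (-0.30, adjusted p = 0.854).

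Among the CXC ligands, Cxcl12, which binds Cxcr4 and the scavenging receptor Ackr3, differed by frequency. It ranged from 5.488 to 8.218 CPM in control (median 6.38), from 10.21 to 17.78 CPM at 1 Hz (median 14.65), from 8.069 to 14.08 CPM at 4 Hz (median 11.95), and from 4.458 to 7.717 CPM at 10 Hz (median 6.579). All 6 libraries at 1 Hz and 5 of 6 at 4 Hz lay above every control library, and the 10 Hz libraries overlapped control. Cxcl12 was upregulated at 1 Hz (14.74 ± 2.737 against 6.638 ± 0.9813 CPM, log2 fold change 1.16 ± 0.16 SE, edgeR adjusted p = 1.04e-05) and at 4 Hz (11.61 ± 2.382 CPM, 0.80 ± 0.16 SE, adjusted p = 0.000315). At 10 Hz the mean was 6.485 ± 1.14 CPM and the log2 fold change was -0.03 (95% interval -0.37 to 0.31, edgeR adjusted p = 0.942). The difference between frequencies was itself tested, and Cxcl12 was lower at 10 Hz than at 1 Hz (-1.19, edgeR adjusted p = 3.56e-06) and than at 4 Hz (-0.83, adjusted p = 0.000615), with all 6 libraries at 10 Hz below every library of either other frequency. With the small RNA covariate, the change was 0.74 at 1 Hz (adjusted p = 0.252), 0.40 at 4 Hz (adjusted p = 0.392), and -0.83 for 10 Hz against 1 Hz (adjusted p = 0.0428), so that of these the last was still called, and for 10 Hz against 4 Hz it was -0.49 (adjusted p = 0.581).

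The signaling receptor of Cxcl12 was upregulated at every frequency. Cxcr4 averaged 8.906 ± 0.9784 CPM in unstimulated sheets and rose to 27.07 ± 8.541 CPM at 1 Hz (log2 fold change 1.62 ± 0.19 SE, edgeR adjusted p = 2.25e-06), 29.44 ± 4.7 CPM at 4 Hz (1.72 ± 0.19 SE, adjusted p = 4.3e-07), and 15.68 ± 4.676 CPM at 10 Hz (0.81 ± 0.20 SE, adjusted p = 0.0166). All 18 stimulated libraries lay above every control library, as for Csf1. The call at 10 Hz was lost without 10 Hz replicate 6 (0.64, adjusted p = 0.0557) and with limma without a filter (0.62, adjusted p = 0.113), and that at 1 Hz with the small RNA covariate (0.78, adjusted p = 0.191). Ackr3, which binds and removes Cxcl12, was downregulated at 4 Hz, from 52.54 ± 6.044 to 36.41 ± 5.591 CPM (-0.53 ± 0.12 SE, edgeR adjusted p = 0.00102), with all 6 libraries below control. This change was close to the fold limit, and the call was lost without control replicate 3 (-0.49), control replicate 6 (-0.49), or 4 Hz replicate 3 (-0.46), without the filter on low counts (-0.49), and with the small RNA covariate (-0.48, adjusted p = 0.201). At 1 Hz and 10 Hz the log2 fold changes of Ackr3 were -0.15 (adjusted p = 0.336) and -0.09 (adjusted p = 0.713).

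**Figure D2:**
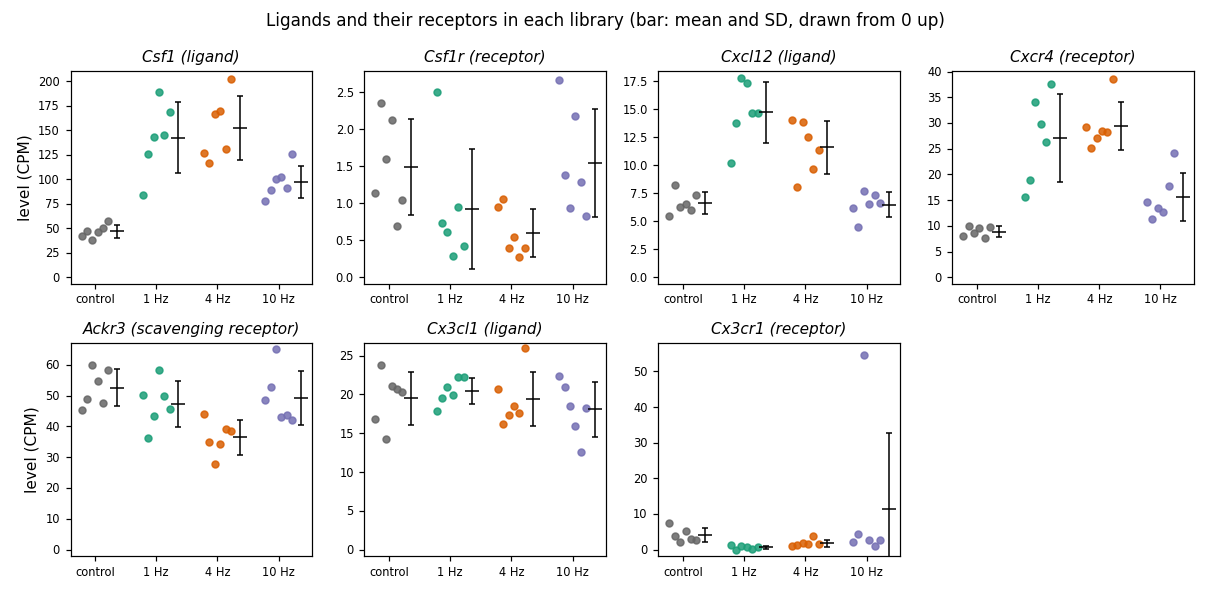
Levels in CPM (linear axes from 0) of 3 ligands and the receptors known for them in each library, by condition, with the mean and SD of 6 libraries. Csf1 and Cxcr4 lay above control in all 18 stimulated libraries, Csf1r stayed below 3 CPM, and Cx3cr1 was high in 1 library at 10 Hz (54.75 CPM).

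Cxcl1 and Cxcl5, ligands of the neutrophil receptor Cxcr2, were low in most libraries. Cxcl1 ranged from 1.002 to 4.603 CPM in control (median 1.987), from 0.5427 to 3.946 CPM at 1 Hz (median 1.284), and from 1.083 to 3.185 CPM at 4 Hz (median 1.274). At 10 Hz it ranged from 1.229 to 41.09 CPM (median 1.979). The conditions overlapped, and the single high value at 10 Hz belonged to replicate 3, which held 394 counts of Cxcl1. Cxcl5 ranged from 0.6264 to 3.766 CPM in control (median 1.338), from 0.2713 to 3.276 CPM at 1 Hz (median 0.8977), from 0.4936 to 1.23 CPM at 4 Hz (median 0.9322), and from 0.9436 to 15.12 CPM at 10 Hz (median 1.597), with the highest value in the same library. Neither gene was called against control at any frequency in the reported fit. The log2 fold changes of Cxcl1 were -0.63 at 1 Hz (SE 0.83, adjusted p = 0.578), -0.45 at 4 Hz (SE 0.79, adjusted p = 0.682), and 1.92 at 10 Hz (SE 0.71, adjusted p = 0.111). For Cxcl5 these were -0.40 (adjusted p = 0.686), -0.81 (adjusted p = 0.373), and 1.28 (adjusted p = 0.233). Without 10 Hz replicate 3 the 10 Hz values became -0.30 for Cxcl1 (adjusted p = 0.735) and -0.16 for Cxcl5 (adjusted p = 0.882). With all libraries but no filter on low counts, Cxcl1 was called at 10 Hz (1.94, edgeR adjusted p = 0.0455). Their receptor Cxcr2 did not pass the filter and had at most 7 counts in a library.

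Cx3cl1, a membrane-tethered chemokine also known as fractalkine, was the steadiest of the ligands. Its level ranged from 14.23 to 23.81 CPM in control (median 20.49), from 17.92 to 22.25 CPM at 1 Hz (median 20.44), from 16.24 to 25.96 CPM at 4 Hz (median 18.07), and from 12.52 to 22.35 CPM at 10 Hz (median 18.37). The conditions overlapped throughout. The log2 fold changes against control were 0.08 at 1 Hz (95% interval -0.20 to 0.36), 0.00 at 4 Hz (-0.28 to 0.27), and -0.09 at 10 Hz (-0.37 to 0.18), with edgeR adjusted p of 0.682, 0.994, and 0.748. The receptor Cx3cr1 was downregulated at 1 Hz, from 4.049 ± 1.931 to 0.6102 ± 0.4535 CPM (log2 fold change -2.61 ± 0.89 SE, edgeR adjusted p = 0.0239), with all 6 libraries below control. This call was lost without control replicate 1 (-2.36, adjusted p = 0.0562), with the small RNA covariate (-2.11, adjusted p = 0.679), and with limma on log2(TPM + 1) with a filter (-1.05, adjusted p = 0.0645) or without one (-1.05, adjusted p = 0.137).

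The CC chemokines Ccl2 and Ccl7, monocyte attractants that share the receptor Ccr2, lie 8.3 kb apart but had log2 fold changes of opposite sign at 1 Hz and 4 Hz. Ccl2 ranged from 1.754 to 6.486 CPM in control (median 3.794), from 1.221 to 3.699 CPM at 1 Hz (median 2.58), from 0.5469 to 2.438 CPM at 4 Hz (median 1.819), and from 1.289 to 12.62 CPM at 10 Hz (median 2.576). Ccl7 ranged from 3.007 to 6.373 CPM in control (median 5.083), from 4.24 to 9.808 CPM at 1 Hz (median 7.911), from 4.565 to 9.023 CPM at 4 Hz (median 7.794), and from 4.599 to 14.5 CPM at 10 Hz (median 6.066). Control and stimulated libraries overlapped for both genes at every frequency. The log2 fold changes of Ccl2 were -0.58 at 1 Hz (adjusted p = 0.335), -1.07 at 4 Hz (adjusted p = 0.0655), and 0.22 at 10 Hz (adjusted p = 0.825). Those of Ccl7 were 0.61 (adjusted p = 0.078), 0.59 (adjusted p = 0.0789), and 0.59 (adjusted p = 0.204). Without 10 Hz replicate 3 the 10 Hz values were -0.50 for Ccl2 (adjusted p = 0.463) and 0.27 for Ccl7 (adjusted p = 0.564). Neither gene was called, and the opposite signs were not tested against each other. Some alternatives did make calls, as Ccl2 at 4 Hz was called in 5 of 11 alternative fits, with DESeq2 among them (-1.09, adjusted p = 0.0365), and Ccl7 was called at 1 Hz and 4 Hz when only the 12 libraries compared were fitted (0.62, adjusted p = 0.0462, and 0.60, adjusted p = 0.0255). Calls were also made for Ccl2 at 4 Hz without control replicate 4 (-1.23, adjusted p = 0.0389), and for Ccl7 without 1 Hz replicate 1 (0.73, adjusted p = 0.0335) or replicate 5 (0.71, adjusted p = 0.0487) at 1 Hz and without 4 Hz replicate 2 (0.70, adjusted p = 0.039) at 4 Hz. Ccr2 had 0 counts in all 24 libraries, which allows up to 3 counts or 0.197 to 0.734 CPM per library, counting error only.

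Ccl9, another CC chemokine, was close to the limit of detection. It had 0 to 3 counts per library in control, 0 to 12 at 1 Hz, 3 to 14 at 4 Hz, and 2 to 8 at 10 Hz. All 6 libraries at 4 Hz were above every control library in CPM (0.4062 to 1.264 against 0 to 0.3759 CPM), while those at 1 Hz and 10 Hz overlapped control. In a fit without the filter, over 31472 genes, the log2 fold change at 4 Hz was 1.74 ± 0.60 SE (edgeR adjusted p = 0.0392), with 0.85 at 1 Hz (adjusted p = 0.429) and 1.31 at 10 Hz (adjusted p = 0.398). The fold of a gene with libraries at 0 depends on the prior count, and these values are no measure of its size.

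Nfkbia, which holds NF-kB in the cytoplasm, had negative log2 fold changes at all 3 frequencies. Its level ranged from 35.54 to 50.31 CPM in control (median 40.05), from 26.43 to 36.22 CPM at 1 Hz (median 31.7), from 18.59 to 27.35 CPM at 4 Hz (median 19.95), and from 21.91 to 39.73 CPM at 10 Hz (median 28.73). All 6 libraries at 4 Hz lay below every control library, and 1 Hz and 10 Hz each overlapped control. Nfkbia was downregulated at 4 Hz, from 41.25 ± 4.925 to 21.97 ± 4.06 CPM (log2 fold change -0.91 ± 0.13 SE, edgeR adjusted p = 6.27e-06), and this call was kept with the small RNA covariate (-0.83, adjusted p = 0.0357). At 1 Hz (-0.39, adjusted p = 0.0184) and at 10 Hz (-0.50, adjusted p = 0.0209) the adjusted p passed and the change did not exceed the fold limit. At 10 Hz the gene was called in 6 of the 12 fits that left out 1 library, with the largest decrease without 10 Hz replicate 3 (-0.61, adjusted p = 0.0038). The other 5 gave -0.50, -0.51, -0.53, and -0.50 without control replicates 3, 4, 5, and 6, and -0.50 without 10 Hz replicate 1.

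Tnfaip3, which encodes the NF-kB inhibitor A20, ranged from 36.9 to 47.29 CPM in control (median 44), from 31.57 to 41.43 CPM at 1 Hz (median 35.76), from 26.27 to 37.58 CPM at 4 Hz (median 31.05), and from 34.8 to 62.26 CPM at 10 Hz (median 38.52). In 5 of 6 libraries at 4 Hz it lay below every control library. The log2 fold changes were -0.26 at 1 Hz (adjusted p = 0.105), -0.48 at 4 Hz (edgeR adjusted p = 0.00288, under the fold limit), and -0.05 at 10 Hz (adjusted p = 0.876). Without 10 Hz replicate 3 the 10 Hz value was -0.20 (edgeR adjusted p = 0.243). The 4 Hz value passed the fold limit without control replicate 1 (-0.51), 4 Hz replicate 2 (-0.54), or 4 Hz replicate 5 (-0.50), and with scaling by total count (-0.57) or limma on log2(TPM + 1) (-0.61). Among the promoter windows, that of Nfkbia and 1 of the 2 of Tnfaip3 hold the NF-kB consensus, as do those of Cxcl1, Ccl9, and Csf1. A relation between the consensus or its distance and the change of a gene was not tested.

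**Figure D3:**
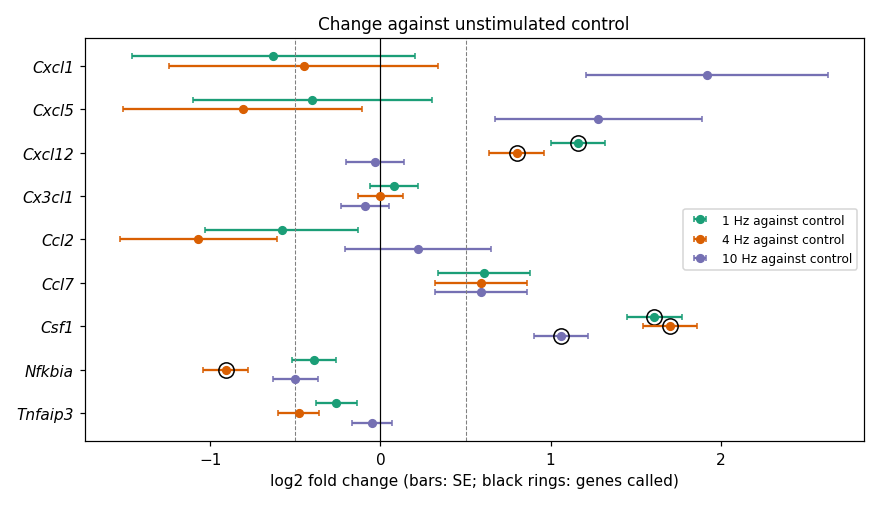
Log2 fold change against control (points, edgeR, bars are SE) of the 9 genes tested at 1 Hz, 4 Hz, and 10 Hz, with black rings around called genes and dashed lines at the fold limit of 0.5. Csf1 was ringed at all 3 frequencies (1.61, 1.70, and 1.06), Cxcl12 at 1 Hz and 4 Hz, and Nfkbia at 4 Hz, while Cxcl1 and Cxcl5 had the widest bars (SE up to 0.83).

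The second question was how the frequencies differed from each other. For 4 Hz against 1 Hz, 1 of 9 genes was called where 3% of all genes were (1.59% up and 1.4% down). This was Nfkbia, which was lower at 4 Hz (log2 fold change -0.52 ± 0.13 SE, edgeR adjusted p = 0.00849), with 4 of 6 libraries at 4 Hz below every library at 1 Hz. The value was near the fold limit and fell to between -0.48 and -0.49 without 1 Hz replicate 4 or 5 or without 4 Hz replicate 3, 4, 5, or 6, with the call lost each time. For 10 Hz against 1 Hz, 4 of 9 genes were called where 17.9% of all genes were (9.45% up and 8.49% down), with Cxcl1 and Cxcl5 higher and Cxcl12 and Csf1 lower at 10 Hz. For 10 Hz against 4 Hz, 5 of 9 genes were called where 11% of all genes were (5.32% up and 5.64% down), with Cxcl1, Cxcl5, and Ccl2 higher and Cxcl12 and Csf1 lower. The 3 comparisons share libraries with each other and with those against control.

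Every call of a higher chemokine level at 10 Hz than at 1 Hz or 4 Hz was lost without 10 Hz replicate 3. With all libraries, the log2 fold change of Cxcl1 was 2.55 against 1 Hz (edgeR adjusted p = 0.00787) and 2.36 against 4 Hz (adjusted p = 0.0156). Without that library these were 0.32 (adjusted p = 0.581) and 0.15 (adjusted p = 0.832). Cxcl5 went from 1.68 (adjusted p = 0.0351) to 0.23 (adjusted p = 0.73) against 1 Hz, and from 2.09 (adjusted p = 0.0164) to 0.65 (adjusted p = 0.345) against 4 Hz. Ccl2 went from 1.29 (adjusted p = 0.0349) to 0.56 (adjusted p = 0.306) against 4 Hz. The members called without it were 2 of 9 against 1 Hz and 2 of 9 against 4 Hz, in both cases Cxcl12 and Csf1. These 5 calls of a higher chemokine level were also lost in all 3 limma fits and with the small RNA covariate, and 4 of the 5 were lost with the replicate number as a block. The Cxcl5 call against 1 Hz was also lost without 1 Hz replicate 3 (1.64, adjusted p = 0.0635), replicate 4 (1.56, adjusted p = 0.0747), replicate 5 (1.46, adjusted p = 0.0801), or replicate 6 (1.52, adjusted p = 0.0799). The Ccl2 call was also lost without 4 Hz replicates 3 (1.29, adjusted p = 0.0573), 5 (1.11, adjusted p = 0.0717), or 6 (1.26, adjusted p = 0.0628), or without 10 Hz replicate 2 (1.26, adjusted p = 0.0618).

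Within 10 Hz, replicate 3 departed from the other 5 libraries in named genes. Cxcl1 was at 41.09 CPM against a median of 1.537 CPM in the other 5, a ratio of 26.7. Cxcl5 was at 15.12 CPM against 1.537 CPM, Ccl2 at 12.62 CPM against 2.005 CPM, and Ccl7 at 14.5 CPM against 5.871 CPM. The inhibitor Tnfaip3 was at 62.26 CPM against 37.04 CPM, and Nfkbia was at 39.73 CPM against 27.98 CPM. By contrast, Cx3cl1 (ratio 1.01), Csf1 (1.10), and Cxcl12 (1.18) were near the other libraries. This library had the highest CPM of all 24 libraries in 5 of the 9 genes, where it did so in 4.97% of all 13318 genes. The library was singled out by its values in these same genes, so this comparison is no test.

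Some other genes of inflammation were high in the same library. Cx3cr1, the receptor of Cx3cl1, was at 54.75 CPM against 2.594 CPM (ratio 21.1), the complement component C3 at 14.5 CPM against 2.824 CPM, and the cytokine Il6 at 12.41 CPM against 4.364 CPM. Nos2, the inducible nitric oxide synthase, was at 155.4 CPM against 52.61 CPM, and the atypical inhibitor Nfkbiz at 43.7 CPM against 15.15 CPM. The library was the highest of 24 in 6 of 14 other NF-kB target genes, in 2 of 5 receptors, in 1 of 3 other chemokines, in 1 of 11 cytokines, and in 1 of 42 NF-kB subunits, inhibitors, and kinases. The leukocyte markers summed to 146.7 TPM in this library, the highest of the 6 at 10 Hz (the others at 110.2 to 141.7 TPM), where control libraries ranged from 133.1 to 193.3 TPM, with Ptprc and Adgre1 never above 1 count. This library held 9.48 M counts and a small RNA share of 110.5 CPM, where the others at 10 Hz ranged from 38.41 to 272.2 CPM, and its summed myotube markers, at 7935 TPM, were the lowest of the 6. The part of these in the result was not tested.

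**Figure D4:**
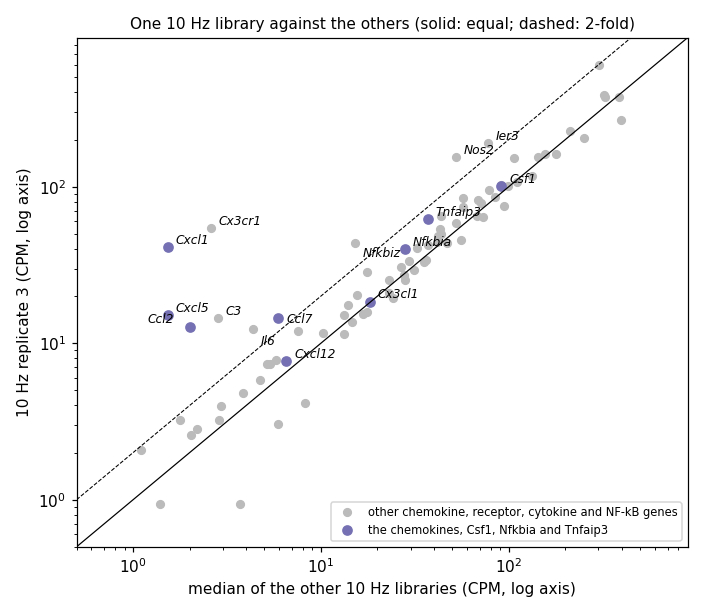
Level in 10 Hz replicate 3 against the median of the other 5 libraries at 10 Hz (CPM, both axes logarithmic) for the genes described here (purple) and the other chemokine, receptor, cytokine, and NF-kB genes that passed the filter (grey). Cxcl1, Cxcl5, Ccl2, and Cx3cr1 lay far above the line of equality, while Csf1, Cxcl12, and Cx3cl1 lay near it.

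Across libraries, some of the genes also varied together within conditions. With condition means removed (log2 CPM, n = 24 libraries that share depth and composition within a library), Pearson's r was 0.77 for Cxcl1 and Cxcl5, 0.71 for Cxcl1 and Ccl2, and 0.66 for Cxcl5 and Ccl2, and these values were 0.48, 0.48, and 0.42 without 10 Hz replicate 3. For Cxcl12 and Csf1, r was 0.56 with that library and 0.57 without it. For Nfkbia and Tnfaip3, r was 0.60 with it and 0.39 without it. For Cxcl1 and Csf1, r was -0.04. These values are descriptions of the libraries and carry no test.

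Among 11750 genes with at least 1 CPM on average, the profile over all 24 libraries (Pearson's r of log2 CPM) closest to that of Csf1 was that of Zfp469 (0.95), followed by the aldehyde dehydrogenase Aldh3a1 (0.94). The closest to Cxcl12 were the matrix metalloproteinase Mmp2 and the exonuclease Dis3l2 (both 0.95), and the closest to Nfkbia were the AP-1 subunit Jun and the keratin Krt19 (both 0.91). Tnfaip3 was closest to the lipid droplet protein Plin2 (0.88) and to Tes (0.87). Cxcl1 and Cxcl5 shared the same closest gene, Pdpn (0.85 for both), followed by Ppt1 (0.81) and Hmga2 (0.84), respectively. By ranks (Spearman's rho), Cxcl1 reached 0.59 with Pdpn and 0.60 with Ppt1, and Cxcl5 0.72 with Pdpn and 0.82 with Hmga2. Ccl2 was closest to Havcr2 (0.82) and Gcnt2 (0.78), Ccl7 to S100a10 (0.81) and Txn1 (0.78), and Cx3cl1 to Slc45a4 (0.77) and Mmp14 (0.76). These likenesses include the condition differences shared by the libraries.

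The wider pathway was described with 140 other genes of chemokine, receptor, cytokine, and NF-kB lists, of which 75 were tested. At 1 Hz, 13 of 75 were called (6 up and 7 down), at 4 Hz 19 (7 up and 12 down), and at 10 Hz 4 (all up), against 18.3%, 20.1%, and 1.86% of all genes. With the small RNA covariate these counts were 0 at 1 Hz and 2 at 4 Hz (Cxcr4 and Nos2), so that every other call at 1 Hz and 4 Hz of the genes named from these lists was lost in that fit. Of all genes tested, the same fit called 0.00751% at 1 Hz and 1.88% at 4 Hz. Of 30 other chemokines, 3 passed the filter. Ccl25 was upregulated at 4 Hz (9.801 to 14.12 CPM, log2 fold change 0.53, edgeR adjusted p = 0.00385), and its call was lost without control replicate 4 (0.47) or 5 (0.48) or 4 Hz replicate 6 (0.47) and with scaling by total count (0.43). Ccl8, another monocyte attractant, was upregulated at 10 Hz (1.585 to 2.893 CPM, 0.89, adjusted p = 0.0334), and its call was lost without any of 5 libraries, with adjusted p of 0.0597 and 0.0827 without control replicates 1 and 4 and of 0.0721, 0.0628, and 0.065 without 10 Hz replicates 3, 4, and 6. The Ccl8 call was also lost without the filter on low counts (adjusted p = 0.141), with limma without a filter (0.66, adjusted p = 0.104), and when only the 12 libraries compared were fitted (0.90, adjusted p = 0.0753). Of 27 receptors, 5 passed the filter, and the called ones were given above with their ligands.

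Of 11 cytokines tested, 4 were called at 1 Hz, 4 at 4 Hz, and 2 at 10 Hz. Lif, a cytokine of the Il6 family that contracting muscle is known to release, averaged 4.799 ± 2.189 CPM in unstimulated sheets and rose to 11.29 ± 2.161 CPM at 1 Hz (log2 fold change 1.19, edgeR adjusted p = 0.000526), 13.18 ± 3.661 CPM at 4 Hz (1.42, adjusted p = 5.46e-05), and 9.118 ± 2.571 CPM at 10 Hz (0.89, adjusted p = 0.0329). The 6 libraries at 1 Hz and at 4 Hz lay above every control library, as did 3 of 6 at 10 Hz, where the call was lost without any of 7 libraries, control replicates 1, 3, 5, and 6 and 10 Hz replicates 3, 4, and 6 (0.76 to 0.88). It was also lost with the small RNA covariate (0.81, adjusted p = 0.0505), when only the 12 libraries compared were fitted (0.89, adjusted p = 0.0783), and with limma without a filter (0.80, adjusted p = 0.115). Il6 was upregulated at 10 Hz (log2 fold change 1.39, adjusted p = 0.0123), and this call was kept without 10 Hz replicate 3 (0.98, adjusted p = 0.0371) and lost in all 3 limma fits (0.77 to 0.91, adjusted p of 0.128 to 0.264). Il15, a muscle-derived cytokine, was upregulated at 1 Hz (0.77, adjusted p = 0.025) and 4 Hz (1.15, adjusted p = 0.00103). Il33, an alarmin, was downregulated at 1 Hz (-0.62, adjusted p = 0.00259) and 4 Hz (-0.92, adjusted p = 3.8e-05). At 1 Hz the Il33 call was lost without control replicate 6 (-0.46), and that of Il15 without control replicates 3, 5, or 6 or 1 Hz replicate 3 (0.67 to 0.69) and in all 3 limma fits (0.60 to 0.67, adjusted p of 0.11 to 0.229). The Il15 call at 4 Hz was lost with limma without a filter (0.79, adjusted p = 0.0753).

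Of 42 NF-kB subunits, inhibitors, and kinases, 6 were called at 1 Hz (3 up and 3 down), 7 at 4 Hz (2 up and 5 down), and 0 at 10 Hz by edgeR. At 1 Hz the interleukin-1 receptor Il1r1 (0.77, adjusted p = 0.000312) and the deubiquitinase Cyld (0.57, adjusted p = 0.000824) were upregulated, and Birc2 (-0.63, adjusted p = 8.62e-05) and Irak4 (-0.98, adjusted p = 0.00162), which relay receptor signals, were downregulated. At 4 Hz Il1r1 was upregulated (0.97, adjusted p = 1.52e-05), and Traf6 (-0.64, adjusted p = 2.4e-05), Irak4 (-0.84, adjusted p = 0.00366), and Nfkbiz (-0.90, adjusted p = 0.00248) were downregulated. The Cyld call at 1 Hz was lost without 1 Hz replicate 3 (0.49), with scaling by total count (0.49), and in all 3 limma fits (0.46 to 0.47), and that of Irak4 at 4 Hz with limma on log2(TPM + 1) with or without a filter (-0.50). Il1r1 and the kinase Irak4 thus had changes of opposite sign at both frequencies, which were not tested against each other. Irak4 was low, with means of 4.734 CPM in control, 2.367 CPM at 1 Hz, and 2.611 CPM at 4 Hz.

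Of 14 other NF-kB target genes tested, 1 was called at 1 Hz, 4 at 4 Hz, and 0 at 10 Hz. At 1 Hz this was the transcription factor Irf1 (log2 fold change -0.58, edgeR adjusted p = 0.000853). At 4 Hz, Nos2 fell from 109.1 ± 16.52 to 28.46 ± 6.39 CPM (-1.94, adjusted p = 2.35e-06), with all 6 libraries below control, and its difference from 1 Hz was also called (-1.46, adjusted p = 0.000512), as for Nfkbia. The stress gene Gadd45b (-0.83, adjusted p = 0.000103) and the plasminogen activator Plau (-0.91, adjusted p = 0.00273) were also downregulated at 4 Hz, whereas the AP-1 subunit Junb was upregulated (0.94, adjusted p = 3.53e-05). The median log2 fold change of the 14 genes at 4 Hz was -0.20, beside -0.01 over all genes tested.

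The summed levels of myotube markers and of markers of cell division differed between conditions. The summed myotube markers ranged from 7522 to 9660 TPM in control, 12110 to 15710 TPM at 1 Hz, 11980 to 17540 TPM at 4 Hz, and 7935 to 13140 TPM at 10 Hz. The summed level of 10 proliferation markers had a mean of 54.9 TPM in control, 43.32 TPM at 1 Hz, 39.38 TPM at 4 Hz, and 47.53 TPM at 10 Hz, and that of 8 markers of undifferentiated myoblasts had means of 3358, 3895, 3054, and 2886 TPM. Single markers did not all follow the sums. Of the 10 myotube markers, 9 had a higher mean than control at 1 Hz, 8 at 4 Hz, and 8 at 10 Hz, with the giant sarcomere protein Ttn lower at each frequency (45.9 TPM in control, 43.7, 37.6, and 43.2 TPM). Of the 10 proliferation markers, 7 had a lower mean than control at 1 Hz, 6 at 4 Hz, and 8 at 10 Hz, and the kinase Cdk1 held much of the sum (28.6 TPM in control, 20.2 TPM at 1 Hz, and 17.6 TPM at 4 Hz), whereas Mki67 was at 0.148 TPM in control, 0.223 TPM at 1 Hz, and 0.297 TPM at 4 Hz. Of the 8 myoblast markers, 5 had a higher mean than control at 1 Hz, 5 at 4 Hz, and 4 at 10 Hz. In control, 1 Hz, 4 Hz, and 10 Hz, Vim (2330, 2680, 1960, and 1880 TPM) and Des (872, 1060, 931, and 828 TPM) held most of that sum. Myf5 was at 15.8, 13.2, 9.16, and 16.7 TPM, and Pax7 at 0.566, 0.953, 0.958, and 0.501 TPM. These sums were not tested. Their part in the results was not tested. In bulk libraries, fewer cells of a type and less RNA per cell cannot be told apart.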

How the data were processed

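RNA was measured in 24 tissues, 6 per condition, and groups and replicate numbers followed the titles of the samples. Libraries were made from poly(A) RNA, except that low-input samples, which are not named, were ribodepleted. The authors ran nf-core/rnaseq with STAR and salmon against GRCm39 and an annotation whose release is not given in the sources used here. They deposited 2 tables, one of estimated counts per gene (expected counts from salmon, not normalized, 6.62% to 10.6% of them not whole) and one of TPM. No column of other samples was present.

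Estimated counts were rounded, and edgeR's filterByExpr (minimum count 10) kept 13318 genes with 99.8% of counts. Conditions were compared as contrasts of a single model without covariates, with TMM scaling and the quasi-likelihood test of edgeR 4.0.16 in R 4.3.3 (glmQLFit, glmQLFTest). SEs were derived from the F statistic. Adjusted p-values are by Benjamini-Hochberg over the genes tested. A call needed an adjusted p under 0.05 and a log2 fold change beyond 0.5 either way. CPM use TMM-scaled library sizes, and SDs are between libraries. Depth of 4.09 to 15.2 M (mega) counts sets the counting error. The tests were run on simulated counts with known changes in the 1 Hz condition only. These held no library that stands apart and no difference in small RNA share, so they do not bear on those limits.

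The 10 genes, the pathway and marker lists, and the tests were chosen with earlier results of these data known. Named genes are the 10 genes, for each comparison with control at most 4 called genes per pathway list by largest absolute log2 fold change, and for each of the 9 kept genes the 2 genes most correlated over 24 libraries. C3 was named for its level in 1 library after its values were seen. Promoter sequences came from RefSeq (GRCm38.p6) and positions from the GENCODE M39 annotation of GRCm39. Alternatives were other scalings and filters, DESeq2 1.42.0 (the study used DESeq2 with apeglm), limma 3.58.1 on log2(TPM + 1) with and without a filter and on log2(TPM + 0.1), the replicate number as a block, the log2 share of 22 small RNAs as a covariate, only the 12 libraries compared, no fold limit, and each library left out in turn.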

Additional observations from a re-analysis of the deposited data

Results flagged for a closer look

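In 128 groups of 6 libraries (10 genes and 22 pathway genes named for a comparison with control, in 4 conditions), the highest or lowest library was tested for a gap to its nearest neighbor that, as a share of the range of the group, exceeded Dixon's critical value for 6 values. The limit flags about 1 in 20 groups when values are independent and normally distributed. Here CPM were used without a logarithm and groups share libraries, so that rate is no measure of chance. In all, 15 of 128 (11.7%) were flagged, 7 of them in the 10 genes and 8 of them in 10 Hz replicate 3.

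In 10 Hz replicate 3, Cxcl1 was at 41.09 CPM (the others at 1.229 to 2.578 CPM), Cxcl5 at 15.12 CPM (0.9436 to 1.694 CPM), Ccl2 at 12.62 CPM (1.289 to 4.765 CPM), Ccl7 at 14.5 CPM (4.599 to 8.147 CPM), and Tnfaip3 at 62.26 CPM (34.8 to 40.89 CPM). In the same library Cx3cr1 was at 54.75 CPM (1.105 to 4.304 CPM), Il6 at 12.41 CPM (2.731 to 5.534 CPM), and Nos2 at 155.4 CPM (36.28 to 56.11 CPM).

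The other high libraries were in single genes. Cxcl1 was at 3.946 CPM in 1 Hz replicate 2 (the others at 0.5427 to 1.498 CPM) and at 3.185 CPM in 4 Hz replicate 2 (1.083 to 1.833 CPM). Csf1r was at 2.505 CPM in 1 Hz replicate 1 (0.2823 to 0.9497 CPM), Nfkbiz at 16.96 CPM in 1 Hz replicate 1 (13.13 to 14.55 CPM), Cx3cr1 at 3.691 CPM in 4 Hz replicate 5 (1.083 to 1.964 CPM), Cxcr4 at 38.6 CPM in 4 Hz replicate 6 (25.16 to 29.25 CPM), and Il33 at 109.2 CPM in control replicate 6 (56.77 to 73.88 CPM). No low library was found.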

How the results depend on the processing

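The called changes of Csf1 at 4 Hz and 10 Hz and of Nfkbia at 4 Hz against control, and of Cxcl12 for 10 Hz against 1 Hz, were called in all 12 alternative fits and in all 12 fits that left out 1 library. The alternatives include the reported fit without the fold limit, where a called gene cannot lose its call. DESeq2 gave Cxcl1 no adjusted p, and the stricter filter dropped the genes of lowest count, so these have no value there. The limits are the low counts of Cxcl1, Cxcl5, Ccl2, and Ccl9, 1 library that stands apart at 10 Hz, and a small RNA share that differed between conditions. Same-numbered libraries of 2 conditions had a median r of 0.01 after condition means were removed (above 0.1 in 10 of 36 pairs, from -0.18 to 0.36). Differently numbered pairs were not computed beside them, so whether the numbers pair the libraries was not tested. With the replicate number as a block, the genes called for 10 Hz against 4 Hz went from 5 to 2, the other NF-kB target genes called at 1 Hz went from 1 to 3, and no other count of the 10 genes, of all pathway genes, or of a pathway list moved by more than 1.5 times. The cause of the changes listed here was not tested.

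Of the 9 genes, the number called at 1 Hz went from 2 to 0 with the small RNA covariate, a fit that called 0.00751% of all genes there. For 10 Hz against 1 Hz and against 4 Hz, that fit called 1.85% and 0% of all genes. At 4 Hz it went from 3 to 5 with scaling by total count, limma on log2(TPM + 1) or log2(TPM + 0.1), or only the 12 libraries. At 10 Hz it went from 1 to 2 with scaling by total count, no filter, any limma fit, or an adjusted p alone. For 4 Hz against 1 Hz it went from 1 to 0 with a minimum mean of 5 CPM. For 10 Hz against 1 Hz it went from 4 to 2 with that minimum, DESeq2, or limma, and to 1 with limma without a filter or the covariate. For 10 Hz against 4 Hz it went from 5 to 2 with the minimum, limma, or only the 12 libraries, to 1 with limma without a filter, and to 0 with the covariate. Leaving out 1 library gave 2 to 3, 3 to 5, and 1 to 2 genes at 1 Hz, 4 Hz, and 10 Hz against control, 0 to 1 for 4 Hz against 1 Hz, 2 to 4 for 10 Hz against 1 Hz, and 2 to 5 for 10 Hz against 4 Hz.

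Of the 75 pathway genes, the number called went from 13 to 21 at 1 Hz, from 19 to 32 at 4 Hz, and from 2 to 8 for 4 Hz against 1 Hz with an adjusted p alone. With the covariate it went to 0 at 1 Hz, 2 at 4 Hz, 0 for 10 Hz against 1 Hz, and 0 for 10 Hz against 4 Hz. In these comparisons that fit called 0.00751%, 1.88%, 1.85%, and 0% of all genes. At 10 Hz it went from 4 to 2 with the minimum of 5 CPM or only the 12 libraries and to 0 with limma without a filter. For 10 Hz against 1 Hz it went from 10 to 6 with limma on log2(TPM + 1) and 5 without a filter, and for 10 Hz against 4 Hz from 16 to 8 without a filter. Leaving out 1 library gave 10 to 15, 16 to 21, and 1 to 4 genes against control, and 1 to 3, 8 to 14, and 14 to 18 for the other comparisons.

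Signs turned only for values that were not called. With the covariate, the log2 fold change became 0.59 for Cxcl1, 1.07 for Cxcl5, and 0.28 for Ccl2 at 1 Hz, 0.71 for Cxcl1 and 0.72 for Cxcl5 at 4 Hz, and 0.24 for Ccl7 between 10 Hz and 1 Hz. With limma, Cx3cl1 became 0.01 for 10 Hz against 4 Hz and -0.09 at 1 Hz, while Ccl2 became -0.20 (pseudocount 1) or -0.25 (pseudocount 0.1) at 10 Hz. Ccl7 became 0.03 for 4 Hz against 1 Hz with the block, and 0.03 (total count) or 0.02 (5 CPM) for 10 Hz against 1 Hz. Leaving out 1 library moved Cxcl5 at 1 Hz between -0.86 and 0.04, Cxcl1 at 10 Hz between -0.30 and 2.22, Cxcl5 at 10 Hz between -0.16 and 1.71, Cxcl12 at 10 Hz between -0.09 and 0.05, and Ccl2 at 10 Hz between -0.50 and 0.44. For 4 Hz against 1 Hz it moved Cxcl1 between -0.12 and 0.54, Cxcl5 between -0.63 and 0.06, Ccl7 between -0.13 and 0.09, and Csf1 between -0.02 and 0.19, and for 10 Hz against 1 Hz it moved Ccl7 between -0.34 and 0.10.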
